A study of Homo sapiens with 2 samples.

Results

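The miR-25, miR-92 and miR-363 family is a group of microRNAs (miRNAs, short RNAs that guide Argonaute to messenger RNAs) that share 1 seed, the bases 2 to 8 with which a miRNA recognises its targets. Its members were taken by name: every listed row with the stem miR-25, miR-32, miR-92a, miR-92a-1, miR-92a-2, miR-92b or miR-363, from either arm of the hairpin. This gave 9 of the 425 miRNAs listed in either library, 5 of them seed strands and 4 of them the opposite strands of the same hairpins. The products miR-363-5p and miR-92a-2-5p were listed in neither library and count as 0. The family was chosen by the RPM of miR-363-3p in these 2 libraries, whose fall was already known, so its values are given as a description.

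Both libraries were prepared from MDA-MB-231-IV2-1 cells, a highly metastatic subline that was isolated through mice from the human triple-negative breast cancer line MDA-MB-231. That name is the paper's: the sample titles give MDA-MB-231-IV2, and another label field gives the parental line. The control cells received a scrambled siRNA (N.C) and the knockdown cells a pool of siRNAs against the long non-coding RNA LOC550643, and RNA was taken after 48 h in both. Each condition has 1 library, which leaves no replicates to set a difference against, and no test was made. The transfection is transient, the cells of both libraries are of 1 subline, and the level of LOC550643 itself was not analysed here.

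The members have related duties in other systems. The seed strands of miR-92a and miR-25 are known to repress the pro-apoptotic gene BCL2L11, and miR-92a belongs to the miR-17-92 cluster, a transcriptional target of MYC that is amplified in some lymphomas. The miR-106b-25 cluster lies inside MCM7, a gene of the replicative helicase, and is transcribed with it. The miR-106a-363 cluster on the X chromosome is a paralogue of miR-17-92. Since a shared seed lets the members act on overlapping sets of messenger RNAs, the total of the seed strands and the part each contributes are both of interest.

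The 5 seed strands are shown because their identical seed and their unlike 3' parts set the frame for the comparison. The sequences are from RefSeq (GRCh38.p14), run 5' to 3', and carry the seed in capitals.
hsa-miR-92a-3p: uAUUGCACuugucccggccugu
hsa-miR-92b-3p: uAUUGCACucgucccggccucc
hsa-miR-25-3p: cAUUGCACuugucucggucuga
hsa-miR-363-3p: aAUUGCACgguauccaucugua
hsa-miR-32-5p: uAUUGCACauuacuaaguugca
All 5 strands are 22 nt long. Among mature human miRNAs of that table, 6 hold this seed, and the sixth, miR-367-3p, was listed in neither library. From base 9 to the end, miR-92a-3p has 11 of 14 bases in common with miR-25-3p and 11 with miR-92b-3p, position by position. In contrast, miR-363-3p has 3 of these 14 bases in common with miR-92a-3p, 3 with miR-92b-3p, 2 with miR-25-3p and 6 with miR-32-5p. Of the 22 bases, 14 are G or C in miR-92b-3p, 12 in miR-92a-3p, 11 in miR-25-3p, 9 in miR-363-3p and 7 in miR-32-5p.

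The hairpins lie on 5 chromosomes (hg38 is the build named in the labels, and positions are from RefSeq, GRCh38.p14). The hairpin MIR363 lies at chrX:134169378-134169452 on the minus strand, and MIR92A2 at chrX:134169538-134169612, 85 nt away on the same strand. In GENCODE 29 both overlap an exon of the non-coding gene AC002407.1. The second source of miR-92a-3p, MIR92A1, lies at chr13:91351314-91351391 on the plus strand and overlaps an exon of MIR17HG, the host transcript of miR-17-92. The hairpin MIR25 (chr7:100093560-100093643, minus strand) is in an intron of MCM7. MIR32 (chr9:109046229-109046298, minus strand) is in an intron of TMEM245. MIR92B (chr1:155195177-155195272, plus strand) overlaps an exon of AC234582.1, a gene on the same strand whose class in GENCODE 29 is antisense. The MIR363 hairpin of 75 nt is printed with miR-363-3p, its bases 50 to 71, in capitals, since this strand had the greatest difference in the family.
MIR363: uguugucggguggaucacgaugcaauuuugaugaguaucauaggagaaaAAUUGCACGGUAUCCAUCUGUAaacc

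The deposited unit is RPM, the reads of a miRNA per 1000000 reads assigned to miRNAs in its library. Most low values are whole multiples of what 1 read is worth, fitted at 5.29 RPM in the control and 2.03 RPM in the knockdown, which gives 189034 and 491541 reads. The knockdown library was thus 2.60 times as deep. A floor of 3 reads equals 15.9 RPM in the former and 6.10 RPM in the latter. Of 7 epithelial miRNAs, 2 were listed (miR-200b-3p and miR-200c-3p), with a sum of 10.6 RPM in the control and 8.14 RPM in the knockdown library. All 6 miRNAs named as abundant in mesenchymal-like lines were listed, led by miR-100-5p and miR-222-3p. Their sum was 190504 RPM in the control and 135204 RPM in the knockdown library, of which miR-100-5p alone held 176488 and 123767 RPM. Against the direction of the sum, miR-22-3p was at 333 and 415 RPM. In the direction of the sum, miR-155-5p was near the floor at 15.9 and 10.2 RPM. Of 6 blood miRNAs, miR-486-5p alone was listed, at 74.1 and 89.5 RPM, and the part of other cells in the results was not tested.

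In RPM, all 5 seed strands were lower with LOC550643 knockdown than in the control, by very unequal amounts. The difference was greatest for miR-363-3p, intermediate for miR-32-5p and miR-92b-3p, and smallest for miR-92a-3p and miR-25-3p, the 2 abundant members. The intervals that follow are exact 95% Clopper-Pearson bounds on the reads, with counting error as their one source. Log2 fold changes set the knockdown against the control after 1 RPM is added to each value, which makes differences at low values look smaller. Their intervals are those of the plain ratio of reads.

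In the control library 53 reads belonged to hsa-miR-363-3p, or 280 RPM with bounds of 210 and 367 RPM. With knockdown there were 7 reads, or 14.2 RPM with bounds of 5.73 and 29.3 RPM. This was 5.08% of the control value, or 19.7-fold lower, and the bounds were far apart. The log2 fold change of -4.21 had bounds of -5.68 and -3.16. This strand went from rank 84 to rank 217 of the listed miRNAs. The knockdown library, although deeper, held fewer reads of it. The closest patterns among the 124 miRNAs averaging 100 RPM or more, judged by the distance between log2 fold changes over the 2 libraries, were miR-197-3p (-1.89) and miR-20a-5p (-1.61). The distance was 2.32 for the former and 2.60 for the latter. However, miR-363-3p met this condition only through its control value and was chosen for its fall, so nothing is read from these distances. The condition also leaves out scarce miRNAs with closer values, such as miR-653 (-4.08), which had 3 control reads and no knockdown read.

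The most abundant member, hsa-miR-92a-3p, took 721 control reads (3814 RPM, bounds 3541 and 4102 RPM) and 1237 knockdown reads (2516 RPM, bounds 2378 and 2661 RPM). Its log2 fold change was -0.60 (-0.73 to -0.47), and the RPM bounds did not overlap. For hsa-miR-25-3p there were 220 control reads (1164 RPM, bounds 1015 and 1328 RPM) and 499 knockdown reads (1015 RPM, bounds 928 and 1108 RPM). These overlapped, and the bounds of the log2 fold change of -0.20, at -0.43 and 0.04, enclose 0. A difference in miR-25-3p was thus not detectable at this depth, and its sign turned under scaling by the 75th percentile or by the median of ratios.

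The strand hsa-miR-92b-3p, which is encoded alone on chromosome 1, took 49 control reads (259 RPM, bounds 192 and 343 RPM) and 65 knockdown reads (133 RPM, bounds 102 and 169 RPM). It was 1.95-fold lower, just short of the 2-fold threshold (log2 fold change -0.96, interval -1.53 to -0.41). The scarcest seed strand of the control library, hsa-miR-32-5p, took 14 reads there (74.1 RPM, bounds 40.5 and 124 RPM) and 12 knockdown reads (24.4 RPM, bounds 12.6 and 42.6 RPM). Its log2 fold change was -1.56 (-2.84 to -0.38), although the RPM bounds overlapped slightly. In the knockdown library the estimated reads of miR-92a-3p and miR-92b-3p were 1236.68 and 65.34. Neither is a whole number, but the pair adds up to 1302.02.

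**Figure D1:**
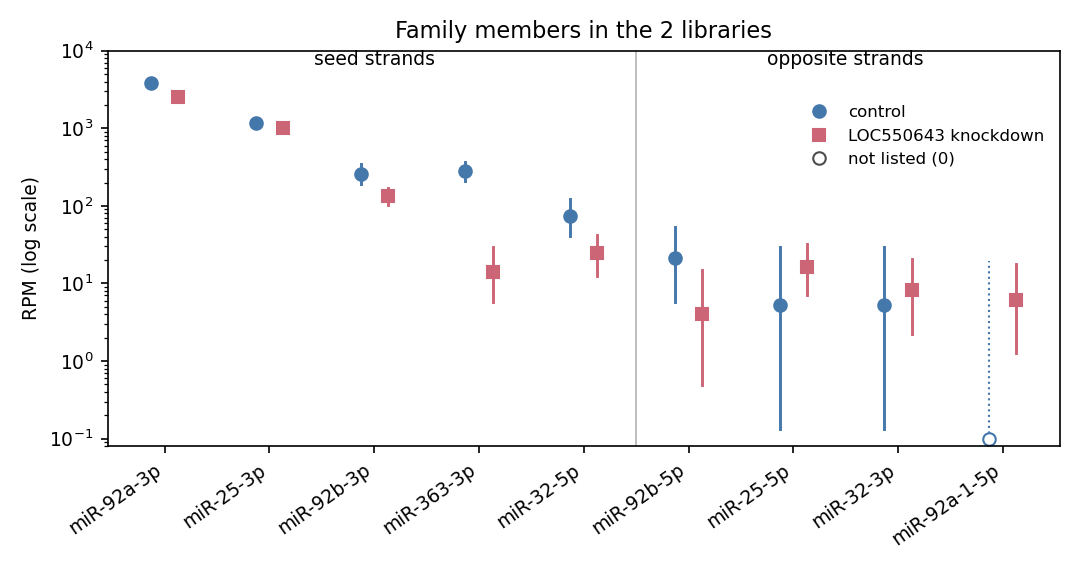
RPM of the 9 listed members (log axis) in the control library (circles) and the LOC550643 knockdown library (squares), with 95% Clopper-Pearson intervals as bars and an open symbol at the bottom edge for a member that was not listed. The squares lie below the circles for all 5 seed strands, with the widest gap at miR-363-3p (280 against 14.2 RPM), and the bars of the opposite strands overlap.

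In the control library the order of the seed strands was miR-92a-3p, miR-25-3p, miR-363-3p, miR-92b-3p and miR-32-5p. The neighbours miR-363-3p and miR-92b-3p had overlapping intervals, and the other neighbours did not. In the knockdown library miR-363-3p took the lowest place, after miR-92a-3p, miR-25-3p, miR-92b-3p and miR-32-5p. Its interval overlapped that of miR-32-5p, and the other neighbours were apart.

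Over all 9 members, in RPM + 1, 3 were more than 2-fold lower and 2 more than 2-fold higher with knockdown. Among all 425 miRNAs 27.3% were more than 2-fold lower and 17.9% more than 2-fold higher. The 3 lower members were miR-363-3p, miR-32-5p and miR-92b-5p, and the 2 higher ones were miR-25-5p and miR-92a-1-5p. The calls for miR-92b-5p, miR-25-5p and miR-92a-1-5p rested on 3 reads or fewer in at least 1 library. With more than 3 reads required in both libraries, the 5 seed strands remained, of which 2 were more than 2-fold lower and 0 more than 2-fold higher, beside 10.9% and 3.48% of the 201 miRNAs that met this condition. All 5 were below 0, beside 63.2% of the 201, but with median-of-ratios or 75th-percentile scaling 4 were below and miR-25-3p was above. These scalings also moved the tally of all 425 from 245 lower and 180 higher to 213 and 212, and to 208 and 217. The interval of the log2 ratio lay wholly below 0 for 4 of the 5, beside 24.9% of those 201. Among miRNAs averaging 100 RPM or more, 5.65% of 124 were more than 2-fold lower and 2.42% more than 2-fold higher. Of the 4 members there, miR-363-3p was the one beyond 2-fold, but it met this condition only through its control value and was chosen for its fall, so nothing is read from that count. At a 1.5-fold threshold 5 of the 9 were lower, beside 35.3% of all miRNAs. The median log2 fold change was -0.96 for the 5 seed strands and -0.19 for the 201 miRNAs. With so few members, and with miR-363-3p known from the start, these shares describe the family and set it apart from no other.

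**Figure D2:**
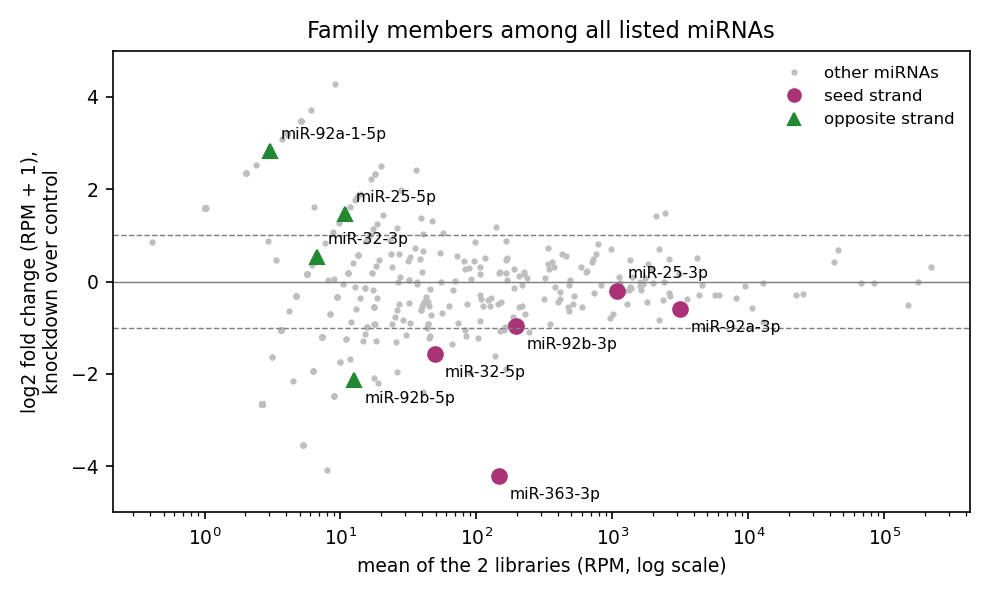
Log2 fold change (RPM + 1, knockdown over control) against the mean RPM of the 2 libraries (log axis) for all 425 listed miRNAs, with the 5 seed strands as circles, the 4 opposite strands as triangles and dashed lines at 2-fold. At -4.21, miR-363-3p lies far below the other miRNAs of similar mean, but it was chosen for its fall, so nothing is read from this. The points of miR-92a-3p (-0.60) and miR-25-3p (-0.20) lie inside the cloud.

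Summed over the 5 seed strands, the family made up 1057 control reads (5592 RPM, bounds 5260 and 5938 RPM) and 1820 knockdown reads (3703 RPM, bounds 3535 and 3876 RPM). The log2 fold change of the sum was -0.59 (-0.70 to -0.48). Without miR-363-3p it was -0.53 (-0.64 to -0.41), so the total was lower with or without that member. Of the 1889 RPM by which the sum was lower, miR-92a-3p accounted for 68.7%, miR-363-3p for 14.1%, miR-25-3p for 7.87%, miR-92b-3p for 6.69% and miR-32-5p for 2.63%. The size of this difference depends on the scaling: the sum was at -0.40 with median-of-ratios size factors, which raise every log2 ratio by 0.20, and at -0.31 with 75th-percentile scaling, which raises them by 0.28.

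A share of the family within a library does not depend on the scaling between libraries. The share of miR-92a-3p was nearly the same in both, at 68.2% (interval 65.3 to 71.0%) in the control and 67.9% (65.8 to 70.1%) in the knockdown library. The share of miR-363-3p was 5.01% (3.78 to 6.51%) in the control library and 0.385% (0.155 to 0.791%) in the knockdown library. For miR-25-3p it was 20.8% (18.4 to 23.4%) and 27.4% (25.4 to 29.5%), the one member with a higher share in the knockdown library and intervals that did not overlap. The shares of miR-92b-3p were 4.64% and 3.59%, and those of miR-32-5p were 1.32% and 0.659%, with overlapping intervals in both cases.

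**Figure D3:**
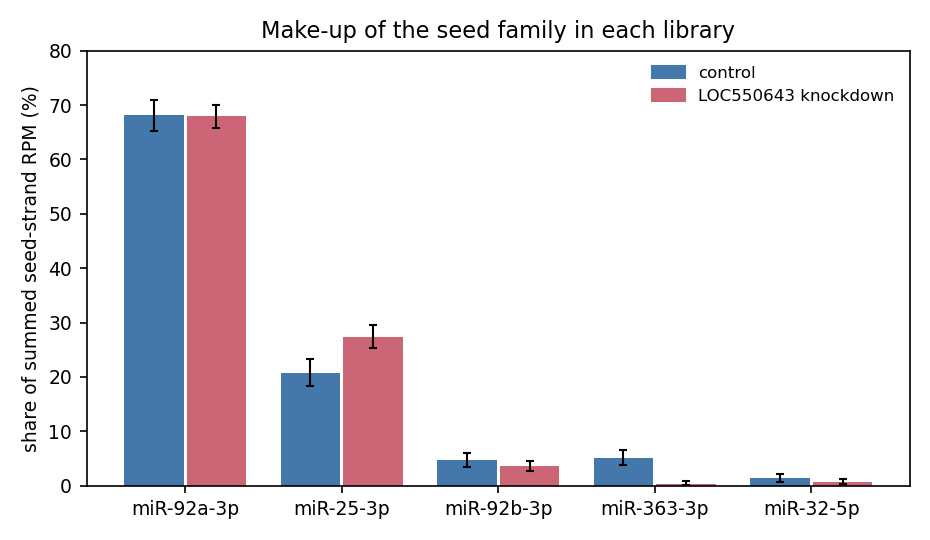
Share of each member in the summed RPM of the 5 seed strands (linear axis, percent) in the control and knockdown libraries, with 95% Clopper-Pearson intervals. The bars of miR-92a-3p are level (68.2% and 67.9%), those of miR-25-3p are 20.8% and 27.4%, and that of miR-363-3p goes from 5.01% to 0.385%.

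Set against its relatives, miR-363-3p was lower in the knockdown library whichever of them was the reference. In the control library there was 1 read of miR-363-3p for every 18.9 reads of the other 4 seed strands, and in the knockdown library 1 for every 259. The log2 difference between these ratios was -3.77, with an exact conditional interval of -5.16 to -2.62. Against miR-92a-3p alone the log2 difference was -3.70 (-5.09 to -2.55), and against miR-25-3p alone it was -4.10 (-5.50 to -2.92). Against miR-92b-3p, which had a similar level in the control library, it was -3.34 (-4.81 to -2.01). The reference nearest to it in direction was miR-32-5p, with a log2 difference of -2.70 (-4.52 to -0.92). All these intervals lie below 0, and with 1 library per condition they carry no variation between cultures. These comparisons reuse the same reads of miR-363-3p, a strand chosen for its fall, so nothing is read from their common direction.

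The other relatives differed less among themselves. Of the 6 pairs without miR-363-3p, 3 had an interval of the log2 difference that holds 0. These were miR-92b-3p against miR-92a-3p (-0.36, -0.95 to 0.21), miR-32-5p against miR-92a-3p (-1.001, -2.25 to 0.23) and miR-32-5p against miR-92b-3p (-0.64, -2.004 to 0.73). The 3 pairs with miR-25-3p did not hold 0. It was higher relative to miR-92a-3p in the knockdown library by 0.40 (0.13 to 0.67), while miR-92b-3p and miR-32-5p were lower relative to it, at -0.77 (-1.38 to -0.16) and -1.40 (-2.67 to -0.16).

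GC content moved with these values only in part. The 2 seed strands with the least GC, miR-363-3p and miR-32-5p, were the 2 beyond 2-fold, but miR-92b-3p, with the most GC, was lower than miR-92a-3p and miR-25-3p in log2 fold change. Over the 109 miRNAs that averaged 100 RPM or more and have a sequence (of 124), the GC share of the mature strand was related to log2 fold change with Spearman rho 0.13, where all points share the same 2 libraries. The part of GC content in the result for miR-363-3p was not tested.

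The opposite strands, which are mostly discarded once Argonaute is loaded, were at or near the floor. For miR-92b-5p there were 4 control reads (21.2 RPM) and 2 knockdown reads (4.07 RPM), and the log2 ratio had bounds of -5.85 and 0.42. For miR-25-5p there was 1 read (5.29 RPM) against 8 (16.3 RPM), with an interval of -1.28 to 7.09. For miR-32-3p there was 1 read (5.29 RPM) against 4 (8.14 RPM), with an interval of -2.72 to 6.24. Each of these intervals holds 0, so no difference was detectable. With no control read and 3 knockdown reads (6.10 RPM), miR-92a-1-5p was at or under the floor in both. Its log2 fold change of 2.83 rests on the added 1 RPM and is not read as a difference. This strand is the one listed product that separates the 2 miR-92a hairpins. The reads of miR-92a-3p, which is identical from both, cannot be divided between chromosomes 13 and X. The ratio of miR-25-5p to miR-25-3p was 0.455 per 100 in the control and 1.60 per 100 in the knockdown library, a log2 difference of 1.82 with an interval of -1.10 to 7.30.

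The miRNAs transcribed with the members gave a mixed picture. Of 14 listed cluster mates, either arm, 6 had more than 3 reads in both libraries, and 3 of these 6 were more than 2-fold lower, beside the 10.9% given above. Of these 3, miR-93-5p and miR-17-5p were just past 2-fold, and their intervals (-1.59 to -0.59 and -1.72 to -0.43) enclose 2-fold. The scalings that raise every log2 ratio by 0.20 or 0.28 would put both short of 2-fold. The 10.9% was not recounted under these scalings. Next to miR-25, miR-106b-3p was at 2010 and 1973 RPM (log2 fold change -0.03) and miR-93-5p at 333 and 157 RPM (-1.08). The ratio of miR-106b-3p to miR-25-3p differed by 0.17 between the libraries (-0.12 to 0.46), and that of miR-93-5p to miR-25-3p by -0.89 (-1.45 to -0.33). Products of this 1 cluster were thus at unlike ratios in the 2 libraries. The opposite arm, miR-106b-5p, was at 47.6 and 32.6 RPM, a log2 ratio with bounds of -1.81 and 0.81 that enclose 0. In miR-17-92, miR-17-5p was at 204 and 96.6 RPM (-1.07) and miR-20a-5p at 206 and 67.1 RPM. The bounds also enclosed 0 for miR-19a-3p, at 18.5 and 16.3 RPM (-2.28 to 1.80). Relative to miR-92a-3p, miR-20a-5p differed by -1.02 (-1.75 to -0.30) and miR-17-5p by -0.48 (-1.13 to 0.18).

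The listed cluster mates of miR-363 that come from the X chromosome alone, miR-106a-5p and miR-20b-5p, were nearly unseen. On the X chromosome, miR-106a-5p was at 7.94 RPM without and at 1.02 RPM with knockdown, 1.5 and 0.5 reads, the fractions being as the values give them. The estimated reads of miR-17-5p from chromosome 13 were fractional too, at 38.5 and 47.5. Whether these miRNAs shared reads was not tested. A single control read and no knockdown read belonged to miR-20b-5p. The control library held 21.2 times as much miR-363-3p as miR-106a-5p and miR-20b-5p together, and the knockdown library 14.0 times as much, a log2 difference of -0.60. That value uses the fractions, while its interval of -5.18 to 4.57 uses reads rounded to whole numbers. Left out of this ratio were miR-92a-3p and miR-19b-3p, whose reads cannot be divided between chromosomes 13 and X. Whether miR-363-3p went along with the rest of its cluster can therefore not be read from these reads. The product miR-19b-3p, which comes from chromosomes 13 and X alike, was at 29.1 and 6.10 RPM, the latter at the floor of 3 reads.

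**Figure D4:**
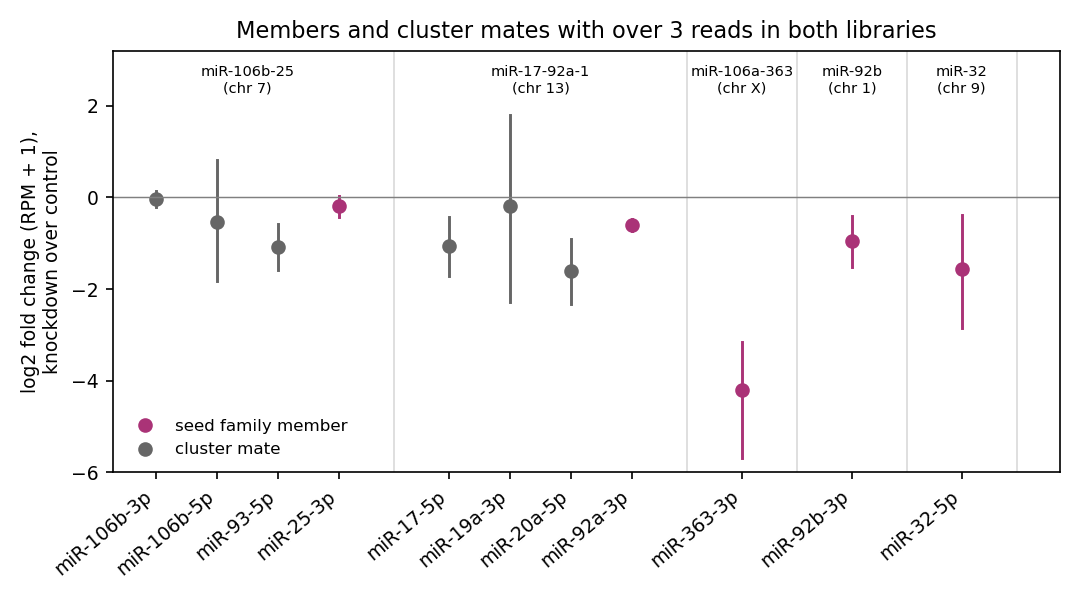
Log2 fold change (RPM + 1, knockdown over control) of the 5 seed strands and of the 6 cluster mates with more than 3 reads in both libraries, by cluster, with 95% counting intervals of the ratio as bars. The interval of miR-363-3p (-5.68 to -3.16) lies below the points of all the others, and miR-25-3p (-0.20) lies by miR-106b-3p (-0.03) and above miR-93-5p (-1.08); miR-92a-3p, which also comes from chromosome X, is drawn with miR-17-92.

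The study asked which miRNAs LOC550643 could bind, so the family's seed was searched in the 3 isoforms of LOC550643 that the study lists (718, 581 and 476 nt). The reverse complement of bases 2 to 8, GTGCAAT, was searched on the sense strand, together with the 6-base matches TGCAAT (bases 2 to 7) and GTGCAA (bases 3 to 8), which both overlap it. None of the 3 motifs occurs in any isoform. Of 15030 GENCODE 29 transcripts of 668 to 768 nt, 3.21% hold GTGCAAT, 13.2% TGCAAT and 13.8% GTGCAA, so most transcripts of this length lack them too. The search covers these letters only and says nothing of other ways of pairing.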

How the data were processed

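Total RNA of MDA-MB-231-IV2-1 cells was used for 1 small RNA library per condition. The authors used a tool of their own to assign reads to mature miRNAs, and the deposited values are RPM, in 1 table per library. The submitters' processing notes name FastQC, cutadapt and hg38. The aligner, the miRNA reference and possible filters are not given in the sources used here, and labels and methods name different Illumina kits and instruments.

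Values were rescaled from sums of 999996 and 999845 to 1000000, unlisted miRNAs were set to 0, and log2 fold changes used a pseudocount of 1 RPM. The 2-fold threshold is that of the study's microarray. The value of 1 read was fitted to the values up to 20 reads within 0.1 read of a whole number. Of the 253 and 224 values in that range, 92.9% and 91.5% were whole within 0.1 read. Reads were therefore treated as estimates for intervals, rounded to whole numbers. The planned Fisher exact test was not run, as the tables hold no counts. Intervals are 95% Clopper-Pearson or exact conditional (scipy 1.17.1, Python 3.11.15). PCR copies are not independent molecules, so intervals cover counting error only. The ladder and the intervals were tested only on simulated whole counts at the fitted depths. Those hold neither fractional reads nor PCR copies, so the test does not cover them.

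The members, their cluster mates, miR-367 and the marker lists were chosen with earlier results of these data known. All listed members and cluster mates were eligible to be named, and so were the 2 nearest patterns to miR-363-3p. Alternatives covered scaling, pseudocount, threshold, filters and the members summed. All 9 members and 350 of the 425 miRNAs were matched by name to RefSeq sequences.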

Additional observations from a re-analysis of the deposited data

How the results depend on the processing

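No paired analysis was possible because only 1 library was made per condition. Of 54 values of single members under 6 alternatives of scaling and pseudocount, 51 stayed inside the counting interval. The others were miR-25-3p at 0.09 with 75th-percentile scaling (0.0019 with median-of-ratios size factors, inside its interval), and miR-92a-3p at -0.40 with median-of-ratios size factors and at -0.32 with 75th-percentile scaling. For miR-363-3p the range was -4.29 to -3.58, for miR-32-5p -1.60 to -1.29 and for miR-92b-3p -0.99 to -0.68. The summed seed family was at -0.40 with median-of-ratios size factors and at -0.31 with 75th-percentile scaling.

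Relative to its cluster mates miR-106a-5p and miR-20b-5p, miR-363-3p differed by -0.60, as against -3.77 relative to its seed relatives, and these mates hold too few reads to use. At a 1.5-fold threshold 5 members were lower, and among members averaging 100 RPM or more 1 was lower and 0 were higher. The 2 higher members became 1 among rows above 0 in both libraries, 0 with a pseudocount of 10 RPM and 0 with more than 3 reads in both libraries, a filter chosen after seeing the data. Over all miRNAs, 116 lower and 76 higher became 25 and 19 with a pseudocount of 10 RPM, 7 and 3 where the mean reached 100 RPM, and 22 and 7 with more than 3 reads in both libraries. By construction, the filters leave out rows with few reads, and the larger pseudocount shrinks their differences. What causes the differences that remain was not tested. The values of the opposite strands and of miR-106a-5p and miR-20b-5p lie at or near the floor and rest on few reads. Leaving miR-92a-3p out of the sum raised the share of each other member by construction, that of miR-363-3p to 15.8% in the control and 1.20% in the knockdown library.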
